A study of Mus musculus with 13 samples.

Results

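The 6 genes described here encode the parts that put peptides on MHC class I molecules: the heavy chains H2-K1 and H2-D1, the light chain B2m, the transporter subunits Tap1 and Tap2, and the bridging protein Tapbp. They were matched by symbol, with earlier results of these data known, and are 6 of the 32285 genes in the matrices. Their UMIs (unique molecular identifiers, 1 per captured RNA molecule) were followed over marker-defined cell classes in single-nucleus RNA sequencing of whole frozen hippocampus from 13 female mice, with 1 library per mouse. All mice carried the same F1 hybrid background, written C3HB6F1 in the sample labels and C3B6F1 in the series text, and the labels name no transgene. The young group (n = 3) was fed ad libitum and taken at 5 months. The old ad libitum group (n = 3), the acute restriction group (n = 3, dietary restriction from 20 months) and the long-term restriction group (n = 4, dietary restriction from 5 months) were all taken at 24 months. The extent of the restriction is not given in the sources used here. The design sets the old against the young ad libitum mice (ageing), and each restricted group against the old ad libitum mice and against each other.

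Class I molecules show fragments of a cell's own proteins at its surface, where CD8 T cells read them. The heavy chain holds the peptide and is stable at the surface only when paired with beta-2 microglobulin, the product of B2m. Tap1 and Tap2 together form the pump that carries peptides from the cytosol into the endoplasmic reticulum, and tapasin, the product of Tapbp, holds an empty heavy chain next to that pump while it is loaded. Interferons raise the transcription of these genes in many tissues, and neurons are known for low class I levels compared with vascular and immune cells of the brain.

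Of the members, 5 lie in the MHC region of chromosome 17 in the mm10 build, which the submitters' processing notes name, and gene bounds were taken from GENCODE M21. These are Tapbp (chr17:33915899-33929292, plus strand), H2-K1 (chr17:33996017-34000347, minus strand), Tap1 (chr17:34187553-34197225, plus strand), Tap2 (chr17:34203527-34216321, plus strand) and H2-D1 (chr17:35262730-35267499, plus strand). B2m lies at chr2:122147686-122153083 on the plus strand. H2-K1 and H2-D1 are close paralogs, and the hybrid mice carry a second haplotype beside that of the reference strain, so the split of reads between the heavy chains is uncertain in the same way in all groups. Tapbp overlaps Zbtb22 on its own strand, and B2m, Tap1, Tap2 and Tapbp each overlap a gene on the other strand (Patl2 for B2m, Psmb9 for Tap1). Whether counting used strand or intronic reads is not given in the sources used here, so reads from such neighbours could not be told apart.

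The stretches below show letters that the upstream regions of both heavy chain genes hold, as their levels are set side by side in the results. RefSeq promoter windows (GRCm38.p6, the mm10 assembly) were present for 5 of 6 members, and Tap2 had no entry. In 30 bases upstream of each heavy chain gene (H2-K1 at chr17:34000430-34000459, minus strand; H2-D1 at chr17:35262922-35262951, plus strand, within the longer gene model of GENCODE M21), capitals mark letters of the kappa-B type (GGGATTCCC) and of the interferon-response type (AGTTTCACT).
H2-K1: tgGGGATTCCCcatctccacAGTTTCACTt
H2-D1: tgGGGATTCCCcatctcctcAGTTTCACTt
The pair was equal at 29 of 30 bases, in a stretch picked for its shared letters; the rest of the windows was not compared. The single difference was A19T, with the H2-K1 base first and positions counted from 1 at the 5′ end.

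The whole window before the RefSeq start of H2-K1 (250 bases, chr17:34000348-34000597, minus strand) and that of B2m (249 bases, chr2:122147437-122147685, plus strand) show where the same kinds of letters stand in a heavy and the light chain gene. Capitals mark GGGATTCCC, AGTTTCACT and a CCAAT read from the other strand in H2-K1. In B2m they mark GAAACTGAA and again such a reversed CCAAT.
H2-K1 window: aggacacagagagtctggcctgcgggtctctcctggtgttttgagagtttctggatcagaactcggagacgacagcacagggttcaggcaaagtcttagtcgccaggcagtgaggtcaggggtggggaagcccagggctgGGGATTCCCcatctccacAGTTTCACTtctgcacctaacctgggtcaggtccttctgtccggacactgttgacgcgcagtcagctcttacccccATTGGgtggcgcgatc
B2m window: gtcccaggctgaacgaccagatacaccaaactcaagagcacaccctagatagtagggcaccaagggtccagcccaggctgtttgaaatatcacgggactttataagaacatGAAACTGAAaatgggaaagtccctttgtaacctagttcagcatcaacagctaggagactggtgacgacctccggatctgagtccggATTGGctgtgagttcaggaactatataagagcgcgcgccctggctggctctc
Searched on both strands over the 250 bases before the start, GGGANTCCC, which reads the same on both strands, was present in 0.636% of 32851 RefSeq promoters and in H2-K1 and H2-D1 among the members. AGTTTCNNT, a pattern chosen after the sequences were seen, was in 4.12% of promoters and again in H2-K1 and H2-D1. GAAANNGAA was in 7.13% of promoters and only in B2m among the 5 members with an entry, and CCAAT was in 33.8% of promoters and in all 5. No member held TGACGTCA (1.55% of promoters) or TGACGCAA (0.438%). No searched pattern overlapped another in these windows. These are matches of letters, and no binding was measured.

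The matrices held 38546292 to 80538090 UMIs per library, and 98041 nuclei remained after filters and removal of doublet-scored barcodes. Of these, 81271 fell in 17 classes named from markers, and 16770 stayed unnamed. No pair of libraries shared more than 0.471% of the smaller library's barcodes. The 4 libraries numbered 1 (1 in each group) stood apart: oligodendrocytes made up 0.622% to 3.22% of their nuclei and 7.99% to 22.8% in the other libraries. Levels below are CPM, the UMIs of a gene scaled to 1000000 UMIs of that class in that mouse, for sums of at least 20 nuclei, as mean ± SD over the mice with such a sum. Within a group, the labels tell the mice apart by number only. The p-values measure the spread between these libraries.

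Among the classes with sums per mouse, and per UMI of the class, the heavy chains and B2m were highest in endothelial cells and macrophages, lower in astrocytes and oligodendrocyte precursors, and lowest in neurons with sums in all 13 mice. Of the 14 classes with sums in at least 6 mice, endothelial cells had the highest pooled level of 5 of 6 members, and microglia had the highest level of Tap1. Among all 16233 genes with at least 500 UMIs, 14.7% were highest in endothelial cells and 18.8% in microglia. Endothelial cells were 380 nuclei, 0.388% of those retained, and held 258 of the 1419 H2-K1 UMIs (18.2%), 365 of the 2745 H2-D1 UMIs (13.3%) and 240 of the 2641 B2m UMIs (9.09%). Granule neurons, the most numerous class, held 12.7% of the H2-K1, 16.1% of the H2-D1 and 24.5% of the B2m UMIs at far lower levels per UMI. The 16770 unnamed nuclei held 9.7% of the H2-K1, 24.5% of the H2-D1 and 19.7% of the B2m UMIs. The plot of levels by class shows the single mice.

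**Figure D1:**
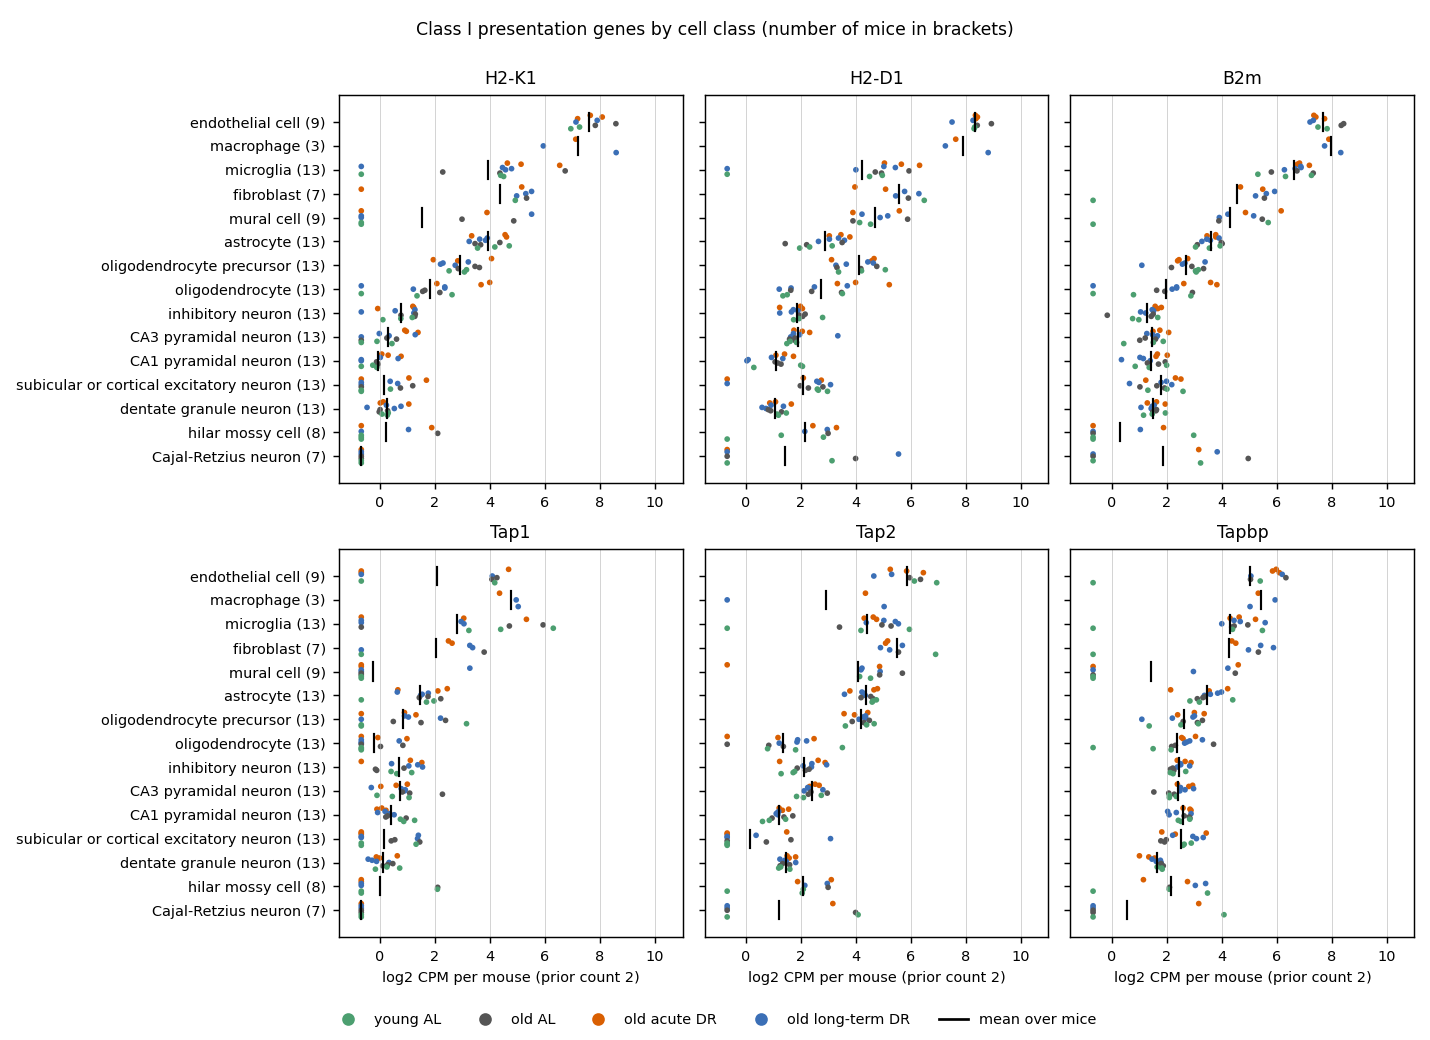
Level of each member (panels) in each marker-defined cell class, as log2 CPM with a prior count of 2. Points are mice with at least 20 nuclei of that class, coloured by group, and black bars are means over mice; points at the far left hold no UMI of the gene. For H2-K1, H2-D1 and B2m, endothelial cells and macrophages lie farthest right (208, 326 and 214 CPM on average in endothelial cells), and neurons at the left.

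H2-K1, a classical heavy chain, reached 208 ± 82.4 CPM (SD, n = 9 mice) in endothelial cells, with single mice from 122 to 381 CPM. Macrophages had 194 ± 169 CPM (n = 3), where the 3 mice spread from 60.7 to 384 CPM on 2 to 12 UMIs each. These mice were acute replicate 3 and long-term replicates 1 and 2, here and in each macrophage mean below. No ad libitum mouse is thus in the macrophage means. Fibroblasts (31.3 ± 14.8 CPM, n = 7) and microglia (30.3 ± 32.3 CPM, n = 13) came next, and 2 microglial sums held no H2-K1 UMI. Astrocytes had 15.4 ± 5.76 CPM, oligodendrocyte precursors 7.57 ± 3.55 CPM, oligodendrocytes 4.45 ± 4.48 CPM and dentate granule neurons 0.598 ± 0.347 CPM (n = 13 each). Within mice, H2-K1 was higher in astrocytes than in oligodendrocyte precursors by 1.01 ± 0.60 on the log2 scale (SD, higher in 12 of 13 mice; exact two-sided sign-flip permutation test, adjusted p = 0.019 over 78 pairs of neighbouring classes).

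H2-D1, the other classical heavy chain, followed the same outline at 326 ± 77.3 CPM in endothelial cells (n = 9) and 266 ± 159 CPM in macrophages (n = 3). Fibroblasts had 53.0 ± 25.4 CPM (n = 7), microglia 32.2 ± 22.2 CPM (n = 13) and mural cells, the pericytes and muscle cells around vessels, 28.4 ± 15.7 CPM (n = 9). The order of the precursor and astrocyte classes was the opposite of that for H2-K1. Oligodendrocyte precursors had 18.2 ± 8.03 CPM and astrocytes 7.53 ± 3.46 CPM, a difference of 1.21 ± 0.67 on the log2 scale (SD) that had the same direction in 13 of 13 mice (exact sign-flip permutation test, adjusted p = 0.019). Oligodendrocytes had 8.86 ± 9.49 CPM and granule neurons 1.53 ± 0.477 CPM.

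B2m, the light chain, was present in every microglial sum and far above its level in the other glia. It was at 256 ± 56.2 CPM in macrophages (n = 3), 214 ± 72.6 CPM in endothelial cells (n = 9) and 105 ± 35.9 CPM in microglia (n = 13), against 11.9 ± 2.70 CPM in astrocytes and 6.30 ± 2.35 CPM in oligodendrocyte precursors. The 13 microglial sums ran from 39.1 to 160 CPM with a median of 107, and none overlapped the astrocyte range of 7.64 to 15.6 CPM. Endothelial B2m exceeded microglial B2m in 9 of 9 mice (1.23 ± 0.78 on the log2 scale, SD; exact sign-flip permutation test, adjusted p = 0.0762), which misses the threshold of 0.05. With 9 mice all in 1 direction, this test was already at the smallest p it can reach. B2m was higher in astrocytes than in oligodendrocyte precursors in 12 of 13 mice (0.91 ± 0.66, SD; exact sign-flip permutation test, adjusted p = 0.019). Granule, CA1 and CA3 neurons had 2.28 ± 0.526, 2.17 ± 0.861 and 2.23 ± 0.725 CPM, and no step among these classes passed the test.

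Tap1, a subunit of the peptide pump, was the scarcest member, with 568 UMIs in all retained nuclei. Its level was 27.4 ± 6.65 CPM in macrophages on 1 UMI per mouse (n = 3), 19.6 ± 25.2 CPM in microglia and 10.4 ± 10.2 CPM in endothelial cells, where 4 of 9 sums held none. Tap2, its partner, had 64.2 ± 29.9 CPM in endothelial cells (n = 9), 50.0 ± 31.2 CPM in fibroblasts (n = 7) and 28.3 ± 16.2 CPM in microglia (n = 13). In the other glia it was at 20.8 ± 4.86 CPM in astrocytes, 18.0 ± 4.04 CPM in oligodendrocyte precursors and 2.79 ± 2.80 CPM in oligodendrocytes. CA3 neurons had 4.79 ± 1.21 CPM of Tap2, above granule neurons (2.17 ± 0.411 CPM) in 13 of 13 mice (0.94 ± 0.34 on the log2 scale, SD; exact sign-flip permutation test, adjusted p = 0.00119). This test belongs to the comparison with granule neurons given below, which was added after the levels had been seen.

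Tapbp, the bridge between heavy chain and pump, had the most UMIs of the members (3114 in all retained nuclei) and was present in every sum of granule, CA1, CA3, inhibitory and subicular or cortical neurons. Endothelial cells had 49.6 ± 25.3 CPM (n = 9), fibroblasts 30.4 ± 18.7 CPM (n = 7), microglia 24.9 ± 12.4 CPM and astrocytes 11.2 ± 4.62 CPM (n = 13 each). Among neurons, CA1 pyramidal cells had 5.53 ± 1.18 CPM and granule cells 2.52 ± 0.479 CPM. The CA1 level was higher in 13 of 13 mice by 0.96 ± 0.40 on the log2 scale (SD; exact sign-flip permutation test, adjusted p = 0.00119). This test, too, is from the comparison with granule neurons added after the levels had been seen.

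Of 78 pairs of neighbouring classes 3 passed, and with a prior count of 0.5 in place of 2 none did, so most steps in these orders were not resolved. With 6 mice the sign-flip test cannot go below 0.0313 before adjustment, and with 9 not below 0.00391. Pairs compared in few mice had little or no room to pass over 78 pairs, whatever their difference. Set against granule neurons, a comparison added after the levels had been seen, 44 of 78 pairs of a member and a class were higher and 5 lower at an adjusted p below 0.05 (exact sign-flip permutation test). By member, the higher classes numbered 7 of 13 for H2-K1, 10 for H2-D1, 6 for B2m, 4 for Tap1, 8 for Tap2 and 9 for Tapbp. Of the lower pairs, those for H2-K1 and Tap1 in Cajal-Retzius neurons rest on 0 UMIs in 334 nuclei. A count of 0 allows up to 3.96 CPM there (3 UMIs of the class total), which is above the granule level, so no difference was detectable at this depth. The remaining 3 were H2-K1 and Tap2 in CA1 neurons (−0.31 and −0.26 on the log2 scale) and Tap2 in subicular or cortical neurons (−1.32, with no UMI in 8 of 13 sums).

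The balance of the heavy chains was different in astrocytes. H2-K1 made up 65.9% of the H2-K1 plus H2-D1 UMIs of astrocytes (340 and 176 UMIs; 95% Wilson interval 61.7% to 69.9%, counting error only), and it exceeded H2-D1 in 13 of 13 mice. In granule neurons the share was 29.0%, in CA3 neurons 21.9%, in CA1 neurons 19.1%, in oligodendrocytes 32.5% and in oligodendrocyte precursors 30.6%. In endothelial cells it was 41.4%, and H2-D1 was the higher gene in 9 of 9 mice. Microglia were between these, at 47.5% (40.0% to 55.2%).

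**Figure D2:**
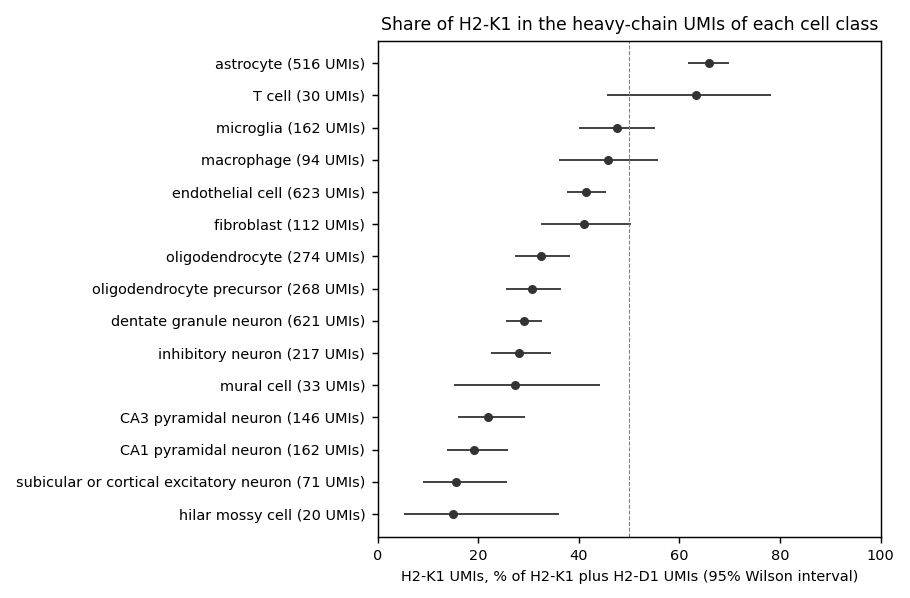
Share of H2-K1 among the H2-K1 plus H2-D1 UMIs of each cell class, pooled over mice (points) with 95% Wilson intervals (lines). The UMIs behind each point are given with the class name, and the dashed line marks equal UMIs. Astrocytes stand at 65.9%, and T cells (63.3%) rest on 30 UMIs.

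The within-mouse log2 ratio of H2-K1 to H2-D1 was compared between astrocytes and each of 13 other classes, a test added after the shares had been seen. It was higher in astrocytes than in 12 of them, with adjusted p from 0.000635 (higher in 13 of 13 mice against granule, CA1, CA3 and inhibitory neurons and oligodendrocyte precursors) to 0.0339 (fibroblasts, higher in 6 of 7 mice; exact sign-flip permutation tests). The prior count adds about 0.626 CPM and so bears on the ratio wherever H2-K1 is sparse. Cajal-Retzius neurons held 0 H2-K1 UMIs, hilar mossy cells 3, mural cells 9 and subicular or cortical neurons 11, and the pooled H2-K1 level was 0.392 CPM in CA1 and 0.653 CPM in granule neurons. Against granule neurons the difference was 1.88 ± 0.75 (SD, n = 13 mice) and against endothelial cells 1.74 ± 0.86 (n = 9; exact sign-flip permutation test, adjusted p = 0.00635). The microglial comparison did not pass (1.36 ± 2.62, higher in 12 of 13 mice; exact sign-flip permutation test, adjusted p = 0.0906). The ratio within 1 class also depends on how well each gene is captured and mapped, so only its differences between classes were tested.

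Depth per nucleus differed between classes, so the share of nuclei with a member UMI was also taken after thinning every nucleus to 1500 UMIs. At least 1 UMI of any member was then present in 67.6% of endothelial nuclei (140 of 207), 57.4% of macrophage nuclei (39 of 68) and 31.5% of microglial nuclei (179 of 569). Fibroblasts had 24.5%, mural cells 17.3%, astrocytes 10.0%, oligodendrocyte precursors 8.75% and oligodendrocytes 3.83%. Granule neurons had the lowest share, 1.52% (612 of 40304), next to 1.90% in CA1 neurons. Free RNA can leave UMIs in nuclei that do not express a gene, so the granule share is taken as the background, and shares near it are not read as expression. Free RNA itself was not measured. Granule nuclei were deeper before thinning (median 6370 UMIs, against 1885 in oligodendrocytes and 1377 in microglia), so their share may be too low a background for shallow classes. Shares above it are not thereby cleared of free RNA. Unthinned, the shares were 70.8% in endothelial nuclei (median 1616 UMIs) and 6.33% in granule nuclei (median 6370 UMIs). Thinning left out 45.5% of endothelial, 62.7% of microglial and 0.395% of granule nuclei, which were shallower.

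Heavy and light chain UMIs were also counted within single nuclei. Of the 221 endothelial nuclei with a heavy-chain UMI, 102 also had a B2m UMI (46.2%), against 18.9% of those without one. In the 14 T cell nuclei, 6 of 12 with a heavy-chain UMI also had a B2m UMI. In microglia the values were 15.8% (22 of 139) and 12.9%, and in oligodendrocytes 3.69% (9 of 244) and 1.05%. The order was the reverse in CA3 neurons (2.16% and 2.85%), hilar mossy cells (0 of 20, and 2.48%) and Cajal-Retzius neurons (0 of 5, and 1.22%). The highest count of a single nucleus was 18 UMIs for B2m and 13 for H2-K1, both in endothelial cells. These shares were not matched for depth and are given without a test.

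No member passed the test in any of the 4 group comparisons. Counts summed per mouse and class were fitted with edgeR's quasi-likelihood test in 11 classes, and p-values were adjusted over all genes of a class (Benjamini-Hochberg). Of 66 pairs of a member and a class, 29 passed the filter on low counts, and only granule neurons had all 6 members tested. For ageing, 0 of 29 pairs were called, where 1.59% of 106300 gene and class pairs were called over all genes. For long-term restriction it was 0 of 29 against 0.0405%, for acute restriction 0 of 29 against 0.214%, and for long-term against acute restriction 0 of 29 against 0.0103%. DESeq2 also called 0 members in each, where it called 3.46%, 0.0564%, 0.193% and 0.0103% of all gene and class pairs, in the same order. In simulated counts with known changes between old and young, edgeR recovered 6.59% of log2 fold changes of 1 in endothelial cells. The share was 35.1% in astrocytes, 42.4% in microglia and 43.4% in oligodendrocytes. The changed genes were drawn at random from those passing the filter, not at the counts of the members. The other comparisons were not simulated, so these shares are not the recovery to be had for the member pairs. Changes of this size could still be missed, and 0 of 29 does not show that levels were stable.

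At an unadjusted p below 0.05, edgeR's test gave 1 of 29 member pairs for ageing (17.9% of all gene and class pairs), 2 for long-term restriction (4.55%), 4 for acute restriction (4.98%) and 4 for long-term against acute restriction (2.92%). The median log2 fold change over the 29 pairs was 0.17 for ageing, −0.22 for long-term restriction, 0.18 for acute restriction and −0.23 for long-term against acute restriction. The first 3 comparisons share the old ad libitum mice, and so their values are not independent.

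**Figure D3:**
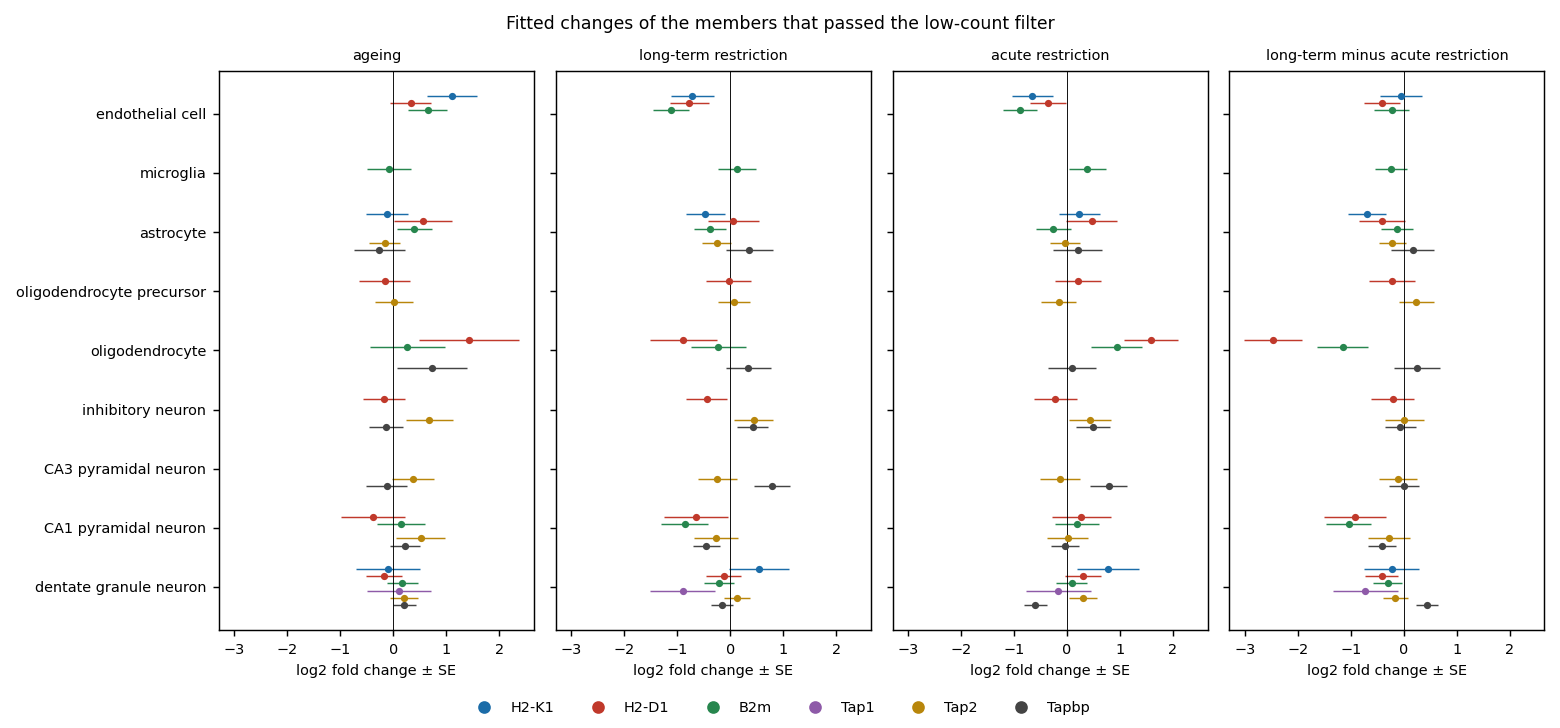
Fitted log2 fold changes of each member in each class where it passed the filter on low counts, for the 4 comparisons, with standard errors. None of the 29 pairs had an adjusted p below 0.05 in any comparison, and the H2-D1 oligodendrocyte estimates lie farthest out, at 1.58 for acute restriction and −2.47 for long-term against acute restriction.

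In oligodendrocytes, the myelin-forming cells, H2-D1 had the largest fitted log2 fold changes of the 29 pairs in every comparison but long-term restriction, and passed the test in none. H2-D1 was at 10.8, 2.21 and 1.92 CPM in the young mice and at 2.48, 4.63 and 10.5 CPM in the old ad libitum mice. It was at 15.3, 9.42 and 36.5 CPM under acute restriction and at 12.3, 5.00, 2.50 and 1.70 CPM under long-term restriction. The acute group stood highest by its mean, but its lowest mouse lay under the highest mouse of each other group. The young value of 10.8 CPM, the acute value of 15.3 CPM and the long-term value of 12.3 CPM came from libraries numbered 1, with 1, 4 and 4 H2-D1 UMIs. The fitted log2 difference was 1.58 ± 0.52 (SE) for acute restriction (edgeR adjusted p = 0.159, where 1.84% of the genes of this class were called) and −2.47 ± 0.55 for long-term against acute restriction (adjusted p = 0.12, 0.0967% called). It was 1.43 ± 0.95 for ageing (adjusted p = 0.422, 7.58% called) and −0.89 ± 0.63 for long-term restriction (adjusted p = 0.737, 0.343% called). Without old ad libitum replicate 4 these last estimates were 0.77 and −0.20.

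This difference rested on the third acute mouse. It held 81 of the 185 oligodendrocyte H2-D1 UMIs, spread over 65 of its 1286 nuclei with at most 4 in a nucleus. Without it the edgeR estimates were 0.54 for acute restriction (adjusted p = 0.918) and −1.41 for long-term against acute restriction (adjusted p = 0.922). Without the second acute mouse they were 2.13 (adjusted p = 0.0178) and −3.00 (adjusted p = 0.00363), past the threshold. Of all gene and class pairs, 0.0847% and 0.00547% were called in those 2 comparisons without that mouse. Of the 9 classes with sums in all 13 mice, the third acute mouse had the highest H2-D1 in 4: oligodendrocytes, granule neurons (2.52 CPM), astrocytes (13.1 CPM) and microglia (78.9 CPM). In the other 5 another mouse was higher, as in CA3 neurons (4.37 CPM, against 9.53 CPM in long-term replicate 3), and so too in endothelial cells (329 CPM, against 485 CPM in an old ad libitum mouse). The microglia of the third acute mouse held 28 UMIs of the 5 MHC class II genes (73.7 CPM), where 10 of the other 12 mice had none and the others 24.2 and 6.73 CPM. These checks were made after its oligodendrocyte value had been seen, and the part of these in the H2-D1 value was not tested.

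**Figure D4:**
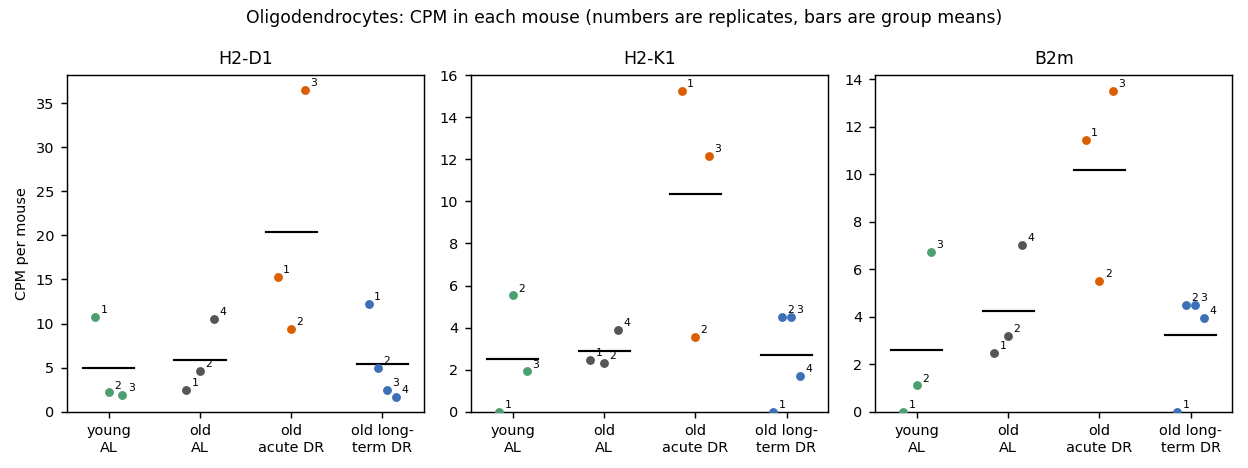
H2-K1, H2-D1 and B2m in oligodendrocytes, in CPM for each mouse (points, numbered by replicate) with group means (bars). The third acute mouse has 36.5 CPM of H2-D1, and the other 12 mice lie between 1.70 and 15.3 CPM.

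H2-K1 and B2m in oligodendrocytes had lower counts than H2-D1. H2-K1 was at 15.3, 3.57 and 12.2 CPM under acute restriction, at 0, 5.53 and 1.92 CPM in the young mice, at 2.48, 2.32 and 3.90 CPM in the old ad libitum mice, and at 0, 4.50, 4.51 and 1.70 CPM under long-term restriction. Its highest value was in the first acute mouse, and it did not pass the filter on low counts there. B2m was at 11.4, 5.52 and 13.5 CPM under acute restriction, 0, 1.11 and 6.72 CPM in the young mice, 2.48, 3.18 and 7.02 CPM in the old ad libitum mice, and 0, 4.50, 4.51 and 3.96 CPM under long-term restriction. The 3 acute B2m values thus stood above all 4 long-term values, and overlapped the old ad libitum ones. The acute value of 11.4 CPM rests on 3 UMIs, and the long-term value of 0 CPM on 0 UMIs in 184 nuclei. Both came from libraries numbered 1, so counting error leaves the order of these groups uncertain. The B2m difference of long-term against acute restriction was −1.16 ± 0.48 (SE; edgeR adjusted p = 0.763). The Tapbp estimates in these cells were 0.10 ± 0.45 for acute and 0.34 ± 0.43 for long-term restriction.

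Markers of other cells were low in the oligodendrocyte sums. The 8 microglial markers, all detected, summed to 45.8 to 66.2 CPM under acute restriction, 41.5 to 54.3 CPM under long-term restriction, 34.3 to 52.0 CPM in the old ad libitum mice and 21.5 to 98.4 CPM in the young, against 7686 CPM or more in microglia. The 8 endothelial markers summed to 7.63 to 15.8 CPM in the acute mice, 4.00 to 15.3 CPM in the long-term, 7.02 to 8.97 CPM in the old ad libitum and 0 to 14.4 CPM in the young mice. The third acute mouse had the highest sum of endothelial markers of the 13 mice (15.8 CPM) and of the 5 MHC class II genes (10 UMIs, 4.51 CPM, against 0 to 3.07 CPM). The 20 interferon-response genes summed to 90.3 to 115 CPM under acute and 77.6 to 123 CPM under long-term restriction, 100.2 to 116 CPM in the old ad libitum and 53.9 to 136 CPM in the young mice, ranges that overlap in this class. The part of these in the H2-D1 values was not tested.

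Endothelial cells could be fitted in 9 mice with 20 or more such nuclei. B2m was at 180 and 227 CPM in the young mice, 344 and 324 CPM in the old ad libitum mice, 162, 171 and 213 CPM under acute restriction, and 160 and 147 CPM under long-term restriction. Both old ad libitum mice stood above all others. The log2 difference was 0.65 ± 0.36 (SE) for ageing (edgeR adjusted p = 0.975), −0.88 ± 0.32 for acute restriction (unadjusted p = 0.0155, edgeR adjusted p = 0.998) and −1.11 ± 0.34 for long-term restriction (unadjusted p = 0.00583, edgeR adjusted p = 0.999). None passed over the 2538 genes tested in this class, of which 0.0% were called. With the libraries numbered 1 left out, which leaves 1 old, 1 young and 1 long-term mouse assumed to vary like the others, the B2m estimates were 0.41 ± 0.59 for ageing and −1.05 ± 0.56 for long-term restriction.

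H2-K1 in endothelial cells was at 152 and 122 CPM in the young mice, 381 and 227 CPM in the old ad libitum mice, 200, 270 and 145 CPM under acute restriction and 238 and 139 CPM under long-term restriction. The old ad libitum range lay above the young one and overlapped both restricted groups, with an ageing estimate of 1.11 ± 0.47 (SE; edgeR adjusted p = 0.975). H2-D1 was at 318 and 314 CPM, 485 and 340 CPM, 325, 341 and 329 CPM, and 305 and 180 CPM in the same order of groups. Its ageing estimate was 0.33 ± 0.39 and its long-term estimate −0.77 ± 0.37 (SE). With the libraries numbered 1 left out, the ageing estimates were 0.79 ± 0.74 for H2-K1 and 0.01 ± 0.57 for H2-D1. Macrophage markers (6 genes, Ms4a7 at 0 in this class) summed to 553 CPM in old ad libitum replicate 1, the mouse with the highest H2-K1, H2-D1 and B2m, to 0 CPM in the other old ad libitum mouse and to at most 24.5 CPM in the other groups. The interferon-response genes summed to 977 and 647 CPM in the old ad libitum mice, 387 and 680 CPM in the young, 377 to 1222 CPM in the acute and 335 to 509 CPM in the long-term mice. The part of these in the endothelial values was not tested.

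**Figure D5:**
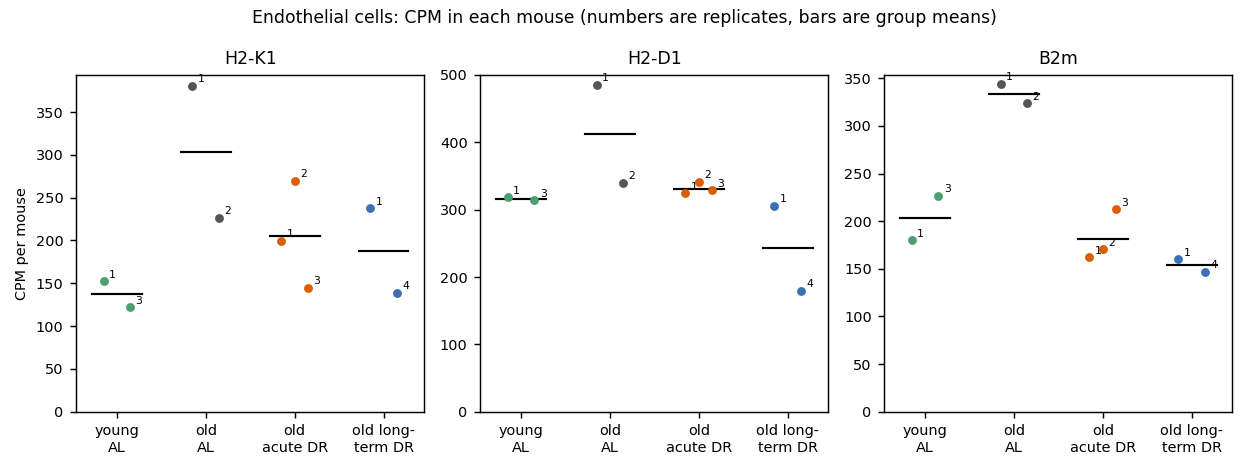
H2-K1, H2-D1 and B2m in endothelial cells, in CPM for each mouse with at least 20 endothelial nuclei (points, numbered by replicate), with group means (bars). B2m of the old ad libitum mice (344 and 324 CPM) lies above the other 7 mice, whose highest value is 227 CPM.

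In microglia, the resident immune cells of the brain, B2m was the only member with enough counts for the fit. It was at 39.1, 153 and 79.0 CPM in the young, 106, 55.2 and 160 CPM in the old ad libitum, 113, 107 and 145 CPM in the acute and 116, 117, 101 and 76.9 CPM in the long-term mice. The groups overlapped throughout, and the estimates were −0.08 for ageing, 0.38 for acute and 0.13 for long-term restriction on the log2 scale. For the 3 interferon-response genes tested in microglia, the median log2 fold change was 0.83 for ageing and 0.05 for acute restriction. It was −0.71 for long-term restriction and −0.82 for long-term against acute restriction. None of the 3 was called, where 1.98% of the genes of this class were for ageing, 0.0274% for acute restriction and 0.0% for the others. The part of these in the microglial values was not tested.

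Astrocytes had 5 members tested, with estimates between −0.27 and 0.56 on the log2 scale for ageing, −0.26 and 0.46 for acute restriction and −0.47 and 0.36 for long-term restriction. With the libraries numbered 1 left out, the H2-D1 estimates in astrocytes moved from 0.46 to 2.08 ± 0.84 (SE; edgeR adjusted p = 0.439) for acute restriction, from 0.06 to 1.44 ± 0.86 for long-term restriction and from 0.56 to −0.53 ± 1.02 for ageing. The Tapbp estimates turned direction there for ageing (0.25 ± 0.63) and acute restriction (−0.15 ± 0.61). In neurons, Tapbp of granule cells was at 1.39, 1.92 and 2.32 CPM under acute restriction and at 2.85, 2.70 and 3.04 CPM in the old ad libitum mice (−0.60 ± 0.22, SE; edgeR adjusted p = 0.671, where 0.0237% of genes were called), ranges that did not overlap. With the libraries numbered 1 left out the estimate was −0.42 ± 0.25. Tapbp of CA3 neurons was at 4.61, 7.05 and 6.36 CPM in the acute, 5.03, 7.24, 5.72 and 4.95 CPM in the long-term and 2.27, 3.58 and 4.21 CPM in the old ad libitum mice (0.79 ± 0.35 and 0.79 ± 0.34, SE; edgeR adjusted p = 1 for both). None of these Tapbp differences passed the test, and the share of granule nuclei with a member UMI is the one taken as background above.

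Summed over all retained nuclei of a mouse, 0 of 6 members were called in any comparison by edgeR or DESeq2, and no gene at all was called for ageing there (0.0% of 20089 genes). For ageing the estimate was positive for 6 of 6 members, with H2-K1 at 1.14 ± 0.51 (SE; unadjusted p = 0.0458, edgeR adjusted p = 0.233) and Tap2 at 0.57 ± 0.24 (unadjusted p = 0.0336, edgeR adjusted p = 0.217). These 2 were the members at an unadjusted p below 0.05, where 20.8% of all genes were. With the 4 libraries numbered 1 left out, a setting added after the data had been seen, the H2-K1 estimate was 0.22 ± 0.43 and that of Tap2 0.28 ± 0.21. Such sums mix classes, and fewer cells of a type and less RNA per cell cannot be told apart in them. Endothelial cells were 44 of 3417 nuclei in old ad libitum replicate 1, 22 of 9250 in replicate 2 and 5 of 6278 in replicate 4. In the young mice they were 22 of 7712, 7 of 9158 and 30 of 7420. Where H2-K1 was tested by class, its ageing estimate was 1.11 ± 0.47 (SE) in endothelial cells, −0.10 ± 0.61 in granule neurons and −0.11 ± 0.40 in astrocytes. The part of the class shares in these sums was not tested.

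The share of nuclei with a member UMI was also compared between groups, in a design where no single test could pass after adjustment, so the result says nothing on stability. Of 280 exact permutation tests of thinned per-mouse shares, 3 had p below 0.05 and none after adjustment (smallest adjusted p = 1). With 3 against 3 mice such a test cannot go below 0.1, and with 3 against 4 not below 0.0286.

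The rest of the class I pathway was followed in a list of 26 genes: non-classical heavy chains, immunoproteasome and trimming genes, chaperones and transcription factors. Of its 20 genes with at least 500 UMIs, 12 were highest in endothelial cells (60.0%) and 5 in microglia (25.0%), beside the 14.7% and 18.8% over all genes. Among those highest in endothelial cells were H2-T23, a non-classical heavy chain (70.6 CPM pooled, against 0.664 CPM in granule neurons), and Psmb10, an immunoproteasome subunit (41.2 against 1.72 CPM).

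In the group comparisons 20 pathway genes were tested in 115 pairs. One pair was called: Irf2, a transcription factor of the interferon-regulatory family, was higher in granule neurons of old than of young ad libitum mice by 0.34 ± 0.085 on the log2 scale (SE; edgeR adjusted p = 0.0471), in a class where 3.47% of genes were called. That call was lost under 17 of 24 alternative settings. The estimate was 0.29 to 0.40 with each library left out and 0.15 to 0.37 under the other settings. No pathway gene was called by edgeR for either restriction or for long-term against acute restriction, and DESeq2 called 0 in each. At an unadjusted p below 0.05 there were 16 of 115 pairs for ageing (13.9%, against 17.9% over all genes) and 5 for long-term restriction (4.35%, against 4.55%). There were 15 for acute restriction (13%, against 4.98%) and 2 for long-term against acute restriction (1.74%, against 2.92%). The median log2 fold change of the 115 pairs was −0.18 for ageing, 0.10 for long-term and 0.15 for acute restriction.

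Genes with the most alike pattern were ranked by Pearson correlation of mean log2 CPM over 14 classes, among genes with at least 500 UMIs. For B2m these were Rab5c (0.97), Fcho2, Ifnar2, Trim56 and Vamp8 (0.95). For H2-D1 they were Esyt1 (0.96), Myl12a, Ppp2r1a, Trim25 and Rpl19 (0.93), and for H2-K1 Smim10l1 (0.96), Ppp2r1a, Pnpla2, Rps24 and Actg1 (0.95). H2-K1 stood at place 15 for H2-D1, with a correlation of 0.91, and B2m at place 78 (0.88). The classes share the same libraries, and small shallow classes weigh as much as large ones, so these correlations are a description only.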

How the data were processed

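Nuclei of whole hippocampus from 13 female mice were profiled by droplet 3' single-nucleus sequencing, per the labels' protocols. The deposited values are raw UMI counts per gene and barcode (32285 genes, 105759 barcodes), made by the authors with Cell Ranger 4.0.0 on mm10, per the submitters' processing notes; strand use, intron counting and correction for free RNA are not given in the sources used here. Barcodes were kept (105427) when 500 or more genes were detected and the mitochondrial share did not exceed 5% of UMIs, and 7386 with the highest Scrublet scores (7.01%) were removed as doublets. Nuclei were clustered with scanpy 1.11.5 and leidenalg 0.10.2 (2000 variable genes, 30 components, 20 neighbours, resolution 1), with members and listed pathway genes left out of the variable genes. Clusters were named from marker lists, needing at least 3 raised markers, so class shares rest on rebuilt names. Counts were summed per mouse and class (at least 20 nuclei, and 2 mice in each group). Group differences were tested with edgeR 4.0.16 (R 4.3.3, TMM factors, filterByExpr, quasi-likelihood test on all 13 mice) at an adjusted p below 0.05; the script was tested on simulated data. Classes were compared within mice on log2 CPM (prior count 2) by exact sign-flip tests (enumerated with numpy 2.4.6). Thinned shares carry exact binomial and pooled CPM Poisson intervals (scipy 1.17.1), which cover counting error only. Medians were 3801 to 11375 UMIs per nucleus. Alternatives were DESeq2 1.42.0, its size factors, no filter, a replicate block, depth and length corrections, doublets kept, other minimums and each library left out. The members and lists were chosen with earlier results of these data known. All 6 members are named, together with pathway genes called in any class and the 5 genes most like H2-K1, H2-D1 and B2m; other genes named as examples of pathway levels were chosen after their values were seen.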

Additional observations from a re-analysis of the deposited data

Results flagged for a closer look

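In the long-term restriction group, the only group of 4 mice, 54 sets of member values were looked at for a mouse far from the other 3, and 5 had one. The rule flags about 1 in 20 sets by chance where values spread smoothly. That rate does not hold for sparse counts, as 3 values at 0 beside 1 higher value are always flagged. H2-D1 in CA3 pyramidal neurons was at 9.53 CPM in replicate 3 (15 UMIs), with the next mouse at 3.26 CPM. B2m in oligodendrocytes was at 0.0 CPM in replicate 1, a library of 184 oligodendrocytes, with the next at 3.96 CPM. Tap1 in oligodendrocytes was at 1.00 CPM in replicate 2 (2 UMIs), while the other 3 mice were at 0. Tap1 in CA3 pyramidal neurons was at 0.180 CPM in replicate 1 (1 UMI), with the next at 1.09 CPM. Tap2 in subicular or cortical excitatory neurons was at 7.83 CPM in replicate 4 (4 UMIs), with the next at 0.670 CPM.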

How the results depend on the processing

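Members called stayed at 0 for ageing, for long-term restriction and in all retained nuclei under each of 24 settings. H2-D1 in oligodendrocytes was the member called under others. For acute restriction that was 1 member with no filter on low counts (1.57, edgeR adjusted p = 0.00221), and 0 to 1 with each library left out. With no filter, 0.209% of all gene and class pairs were called for acute restriction. For long-term against acute restriction it was 1 member with no filter (−2.48, edgeR adjusted p = 7.18e-07), where 0.0302% of all gene and class pairs were called. It was 1 with the length trend removed (−2.39, edgeR adjusted p = 0.0479, 0.0198% called), and 0 to 1 with each library left out. Leaving out long-term replicate 1 gave −2.72 (edgeR adjusted p = 0.0351, 0.0379% of all pairs called). Across libraries left out the estimate ran from 0.54 to 2.28 for acute restriction (adjusted p 0.0178 to 0.918) and from −3.00 to −1.41 for long-term against acute (0.00363 to 0.922). With the replicate block (numbers 1 to 4) long-term against acute had 1 member called (H2-D1, −2.36, edgeR adjusted p = 0.0318, 0.0339% of all pairs called). The numbers were not taken to pair the mice, since deviations of same-numbered mice correlated at −0.0715 to 0.352 for number 2 and −0.0859 to 0.241 for number 3, against 0.338 to 0.798 for number 1 (all retained nuclei). With number 1 as a term (a replicate block of 2 levels), 2 pathway genes were called for ageing (Irf2, and H2-T23 at −1.20), where 6.88% of all gene and class pairs were.

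Pairs of a pathway gene and a class called for ageing numbered 0 with DESeq2 size factors, no filter or the median UMI covariate. They also numbered 0 with the length trend removed or only the compared groups, and 0 to 1 with each library left out. With the libraries numbered 1 left out, a setting chosen after seeing the data, there were 4. In that setting 7.02% of all gene and class pairs were called, against 1.59% in the main fit. The 4 were H2-T24 and H2-T23 in granule neurons, and Irf1 and H2-T24 in CA1 neurons. H2-T24 was also called in all retained nuclei in that setting (−1.98, edgeR adjusted p = 0.0157). For acute restriction there was 1 with no filter (H2-Q4) and 1 with only the compared groups (Canx), both in oligodendrocytes. Of all gene and class pairs, 0.209% and 0.472% were called in those settings. The cause of these changes was not tested. Neighbouring class pairs passing numbered 5 with doublets kept and 0 with a prior count of 0.5. Thinned to 1000 UMIs, the share with a member UMI was 21.4% in microglia, 56.5% in endothelial cells and 0.980% in granule neurons. Over all genes, calls for ageing ran from 31 (median UMI covariate) to 7425 (libraries numbered 1 left out) around 1690, and those for acute restriction from 47 to 490 around 227. Calls for long-term restriction ran from 5 to 237 around 43, and for long-term against acute from 5 to 93 around 11. Counts were low in small classes: Tap1 had 10 UMIs in all endothelial nuclei, 6 in macrophages, 1 in mural cells and 0 in Cajal-Retzius neurons.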

Other observations

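T cells, named from their markers, were 14 nuclei (1 in the young, 2 in the old ad libitum, 4 in the acute and 7 in the long-term mice), too few for any sum per mouse. They held 19 H2-K1, 11 H2-D1 and 8 B2m UMIs in all, which is 1341 CPM of H2-K1 (95% Poisson interval 807 to 2094), 776 CPM of H2-D1 (388 to 1389) and 565 CPM of B2m (244 to 1113). The pooled endothelial values were 253 CPM of H2-K1, 358 CPM of H2-D1 and 236 CPM of B2m. They carry no replicate check.

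Among the clusters left unnamed, 1 cluster, made up of 117 nuclei, had 150 CPM of B2m (31 UMIs in 30 nuclei). It had 77.6 CPM of H2-K1 (16 UMIs) and 58.2 CPM of H2-D1 (12 UMIs). Committed oligodendrocyte precursors (91 nuclei) held no H2-K1 or H2-D1 UMI, which allows up to 6.94 CPM of each.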
